A study of Peromyscus maniculatus and Peromyscus polionotus and Peromyscus maniculatus x Peromyscus polionotus with 18 samples.

Results

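Genomic imprinting leaves 1 parental copy of a gene more active than the other, and the brain is among the mammalian tissues where many such genes are expressed. A list of 52 genes with imprinted or parent-of-origin-biased expression in the laboratory mouse was matched by symbol, without regard to case, to brain RNA-seq tables of 2 deer mouse species and their hybrids. Of these names, 4 were found, Herc3, Bcl2l1, Casd1 and Cobl. All 4 had values in the parental transcript table, and 3 of them, all but Cobl, in the table of allele counts from the hybrids. The other 48 names were not matched by symbol, and, apart from H13 (the mouse symbol of Hm13, described below beside Bcl2l1), they were not analysed here. None of the 4 belongs to the 22 names listed for a mostly paternal or the 14 listed for a mostly maternal transcript in mouse; all come from the 12 names listed as lying in or near an imprinted domain or showing a partial bias, without 1 fixed direction. They are 4 of 20732 genes in the parental table and 3 of 11928 genes in the allele table.

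The animals were male Peromyscus polionotus, male Peromyscus maniculatus and male F1 hybrids of the species, tested as adults at about 50 to 80 days of age. After 2 acclimation trials in sand-filled enclosures, each animal was assigned to a last trial labelled burrowing or control, and the whole brain was taken straight after it for stranded poly(A) RNA-seq. There were 3 libraries in each of the 6 groups: polionotus burrowing, polionotus control, maniculatus burrowing, maniculatus control, F1 burrowing and F1 control. The labels write the hybrids with maniculatus first, all 6 under the same cross name. The sources used here do not say whether that name gives the mother first, and there is no reciprocal cross. An effect of the parent that transmitted an allele and an effect of the species the allele came from therefore cannot be told apart in these hybrids. In whole brains, fewer cells of a type and less RNA per cell cannot be told apart either.

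In an F1 brain both alleles share 1 nucleus, so the polionotus share, the percentage of allele-assigned reads that came from the polionotus copy, compares the copies under the same conditions. An imprinted gene read only from 1 parental copy would sit near 0% or 100%, and a gene with equal copies near 50%. The smallest count in the allele table is 2, so a gene without any reads on 1 of the copies is not in it. The 6 F1 animals had between 11415175 and 53906964 allele-assigned reads. Over all reads of an animal the polionotus share was 52.6% to 53.1%, and its median over genes was 51.2% to 51.4%, so an even gene sits slightly above 50% in these tables. A mean share of at least 75% was found in 5.83% of the 11928 genes, and one of at most 25% in 2.03%. Of the 3 members matched by symbol, 0 reached either bound. Hm13, listed under its mouse symbol H13, averaged 5.63%, past the lower bound. It was not matched by symbol and is not among the members counted here or below. The F1 library burrowing 2 stood apart from the other 5 over all genes. Its summed counts correlated with those of the others at a Spearman's rho of 0.951 to 0.981 across genes, while the other 5 correlated with each other at 0.984 to 0.995. Its allele share lay more than 10 percentage points outside the range of the other 5 at 388 of 6015 genes with at least 1000 allele reads on average, against 33 to 84 such genes for each of the others. Without it, the log2 ratio of the copies was 0.59 for Herc3 (edgeR adjusted p = 0.170), 0.62 for Bcl2l1 (edgeR adjusted p = 6.48e-05) and −0.19 for Casd1 (edgeR adjusted p = 0.00124), with the same calls as in all 6 animals below.

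Herc3 encodes a HECT-domain E3 ubiquitin ligase, an enzyme that tags other proteins with ubiquitin; in mouse brain its transcripts end at different sites on the parental copies, next to an imprinted retrogene inside one of its introns. It was the member whose allele share varied most between hybrids. The polionotus share was 68.3%, 68.9% and 45.0% in burrowing F1 brains 1, 2 and 3, and 69.5%, 69.6% and 45.0% in control F1 brains 1, 2 and 3. In 4 animals the polionotus copy supplied most of the reads and in the other 2, 1 of each trial, the maniculatus copy did. Counting error is small beside this gap: with 5582 to 24995 reads per animal, the 95% Wilson intervals ran from 67.4% to 70.8% over the first 4 animals and from 44.1% to 46.0% over the other two (counting error only, since the reads carry no molecular identifiers). The spread between the lowest and the highest animal was 24.5 percentage points. Among the same 6015 genes 84.2% spread less and 953 spread as much or more.

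**Figure D1:**
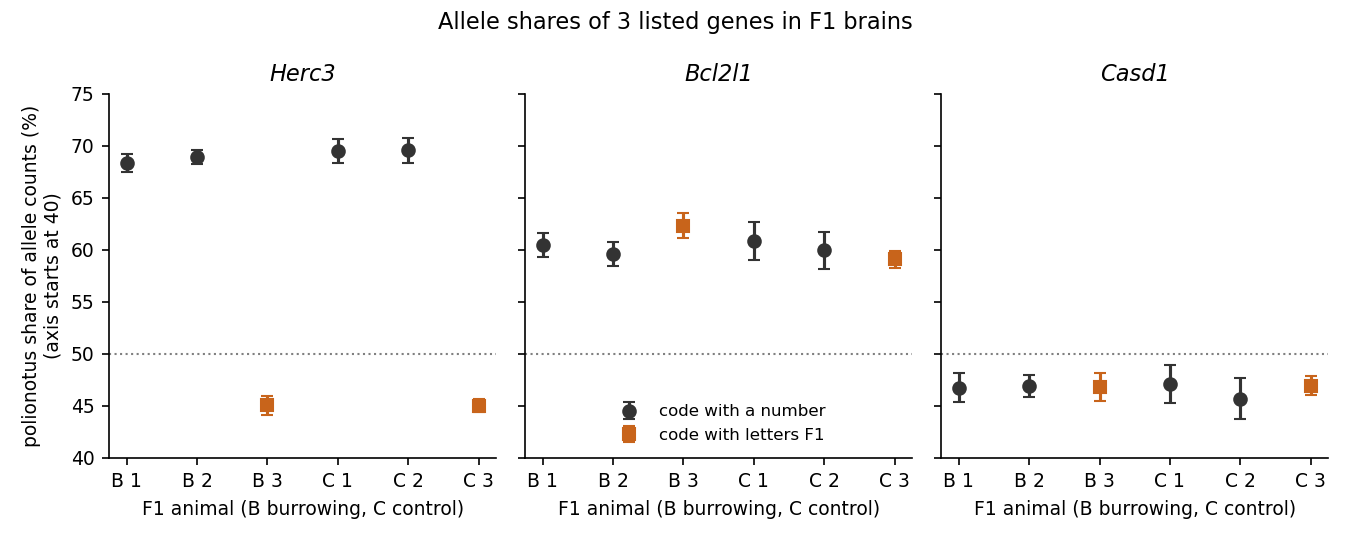
Polionotus share of allele counts (%, axis from 40 to 75) of Herc3, Bcl2l1 and Casd1 in each F1 animal, burrowing left of control; bars are 95% Wilson intervals and the marker shows the form of the animal's label code. Herc3 lies at 68.3% to 69.6% in 4 animals and at 45.0% in 2, while Bcl2l1 stays between 59.1% and 62.3% and Casd1 between 45.7% and 47.1%.

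The 2 animals with the lower Herc3 share, burrowing 3 and control 3, also carry a different kind of code in their sample descriptions: theirs contains the letters F1, while those of the other 4 hold only a number after the cross name. No source used here says what the code stands for, and the match was noticed after the values were seen, so no test was made between the animals. Both copies differed in level between them. Scaled to the animal's total of allele-assigned reads (as CPM), the polionotus copy gave 229 and 209 in the animals with F1 codes, against 276 to 414 in the 4 others. The maniculatus copy gave 279 and 255 in the animals with F1 codes, against 128 to 187 in the 4 others. The ranges did not overlap for either copy, with the polionotus copy lower and the maniculatus copy higher in the F1-coded animals. The sum of both copies was 508 and 464 in the F1-coded animals and lay within the range of the 4 others, 403 to 601. How many of all genes have copies that likewise do not overlap between these animals was not counted.

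**Figure D2:**
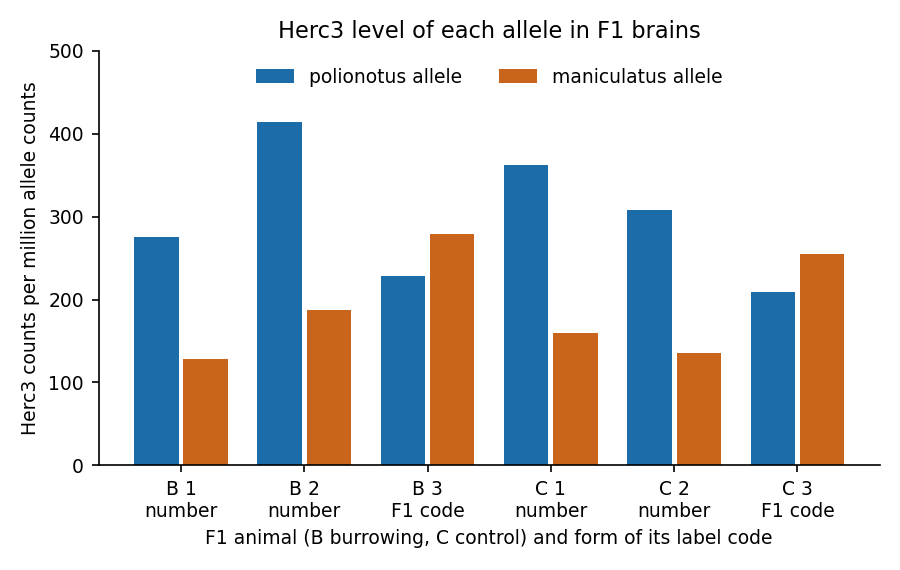
Herc3 CPM of allele counts from the polionotus copy (blue) and the maniculatus copy (orange) in each F1 animal, burrowing left of control, with the form of the label code below. The polionotus bar is the taller in 4 animals and the maniculatus bar in burrowing 3 (229 against 279) and control 3 (209 against 255).

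The genes next to Herc3 were read in the order of the RefSeq annotation of Peromyscus maniculatus bairdii (HU_Pman_BW_mat_3.1), which may not be the build the authors used and which matched 85.1% of the names in the allele table. Of the annotated genes within 50 places of Herc3, 14 with allele counts were read. The named ones were chosen after their values were seen, and are given as a description. Fam13a, 2 places away, had a polionotus share of 58.0% and 57.7% in the F1-coded animals burrowing 3 and control 3, against 67.2% to 69.9% in the 4 others. LOC102909385, 3 places to the other side and the nearest counted gene there, had 61.8% and 58.9% in the F1-coded animals against 68.5% to 81.5% in the 4 others, on 92 to 526 reads per animal. In both of these neighbours, as in Herc3, the same 2 animals had the lowest polionotus share and did not overlap with the others. How many of all genes set these 2 animals apart in the same way was not counted.

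Vopp1, 8 places from Herc3, ran the other way. Its polionotus share was 84.8% and 83.9% in the F1-coded animals, against 62.3% to 64.7% in the 4 others, on 2836 to 12191 reads per animal. At Herc3, Fam13a, LOC102909385 and Vopp1 the shares of burrowing 3 and control 3 thus lay apart from those of the 4 others, not all in the same direction. How common such a separation is over all genes was not counted, so it is not read as a trait of this region. Farther out it was burrowing 2 that lay apart, the library that also did so over all genes; its Herc3 share was like those of the other number-coded animals. Its polionotus share was 98.0% at Adcyap1r1, the PACAP receptor gene 36 places away, against 54.0% to 56.6% in the other 5 animals. At Aqp1, the aquaporin 1 gene 38 places away, it was 88.3% against 46.1% to 50.4%, and at Ndnf, 38 places to the other side, 79.6% against 39.9% to 51.5%. Why these animals stood apart was not tested.

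**Figure D3:**
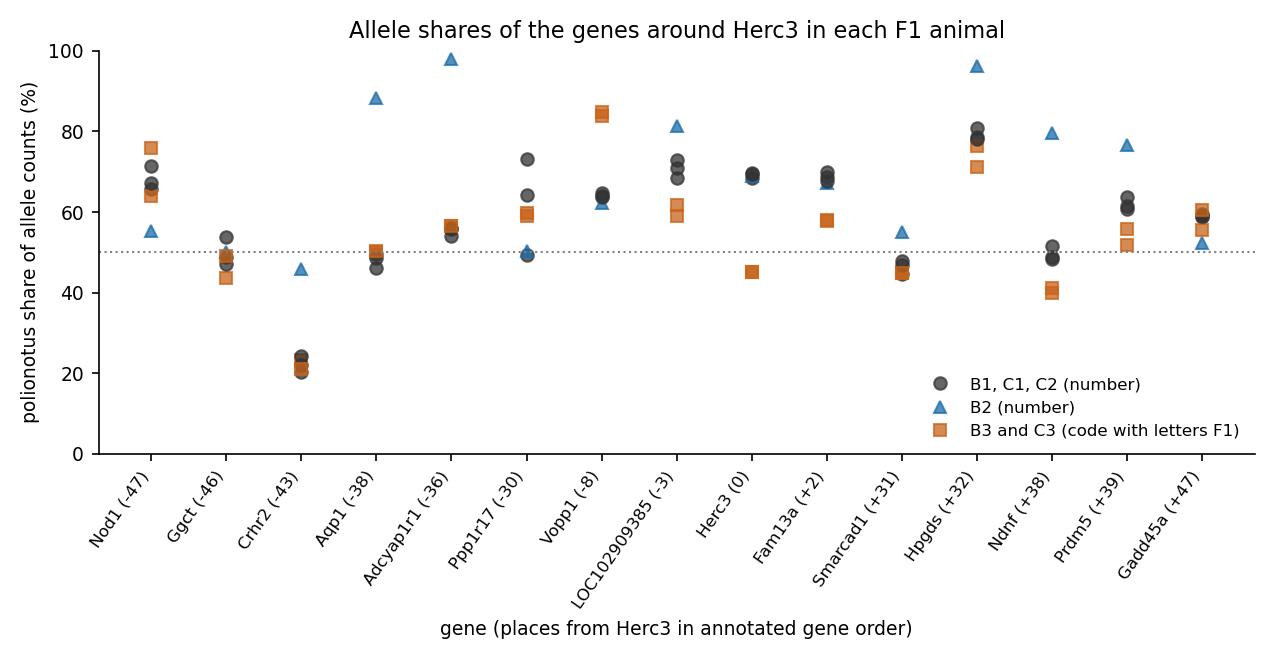
Polionotus share of allele counts (%) in each F1 animal for Herc3 and 14 counted genes within 50 places of it, in annotated order (equal spacing, not to distance). From Vopp1 to Fam13a the squares of burrowing 3 and control 3 lie apart from the other animals (below them at Herc3 and Fam13a, above them at Vopp1), and the triangle of burrowing 2 lies apart at genes farther away such as Adcyap1r1.

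Over all 6 animals, the test of the polionotus against the maniculatus copy did not call Herc3: the log2 ratio was 0.68 (SE 0.28, adjusted p = 0.0777, edgeR quasi-likelihood test with each animal as a block and Benjamini-Hochberg adjustment over all genes). Leaving out burrowing 3 gave 0.88 (adjusted p = 0.0374) and leaving out control 3 gave 0.88 (adjusted p = 0.0368), both past the threshold of 0.05, and DESeq2 on all 6 animals gave 0.68 (adjusted p = 0.0326). Over the 4 number-coded animals alone the log2 ratio was 1.16 and over the 2 F1-coded animals it was −0.29. In this comparison 55.7% of the 11928 genes were called, 34.2% with the polionotus copy higher and 21.5% with it lower; 2 of the 3 members were called, Bcl2l1 higher and Casd1 lower. The share of members called is close to that background.

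In the parental brains Herc3 was the most abundant of the 4 members and was higher in polionotus. It had 70.8, 64.1 and 66.9 TPM (transcript counts scaled per length and per library) in polionotus burrowing brains and 67.6, 49.8 and 61.8 TPM in polionotus control brains. In maniculatus it had 53.2, 51.3 and 53.0 TPM in burrowing brains and 50.1, 52.3 and 38.0 TPM in control brains. The ranges overlapped through 1 library, polionotus control 2, which lay below the highest maniculatus libraries. The mean was 63.5 ± 7.40 TPM in polionotus and 49.7 ± 5.81 TPM in maniculatus (SD, n = 6 each), a log2(TPM + 1) difference of 0.35 (SE 0.09, limma adjusted p = 0.00695). Both libraries at the low end of their species, polionotus control 2 and maniculatus control 3, belonged to 3 libraries that stood apart from the rest on the second principal component (polionotus burrowing 3 being the other), and without these 3 the difference was 0.34 (limma adjusted p = 0.000585). Set as a share, the parental means correspond to 56.1% polionotus, which lies between the 2 levels seen in the hybrids.

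Across all genes tested in the parental brains, 52.4% differed between the species, 32.6% with polionotus higher and 19.8% with it lower. Of the 4 members 2 were called, Herc3 higher and Casd1 lower, which is close to that background. The split of all calls depends on the scaling: 62.3% of the calls were higher in polionotus in the TPM as deposited, against 49.8% after quantile normalization and 48.6% after median scaling, while the 2 called members kept their direction and their call under both.

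Bcl2l1 encodes Bcl-xL, an inhibitor of apoptosis that keeps neurons alive, and in mouse brain its paternal copy is reported as the more active one. It was the member with a steady allele imbalance and no called parental difference. Its polionotus share was 60.4%, 59.6% and 62.3% in burrowing F1 brains 1, 2 and 3 and 60.8%, 59.95% and 59.1% in control F1 brains 1, 2 and 3, on 2776 to 14106 reads per animal. All 6 animals lay above 59% and within 3.26 percentage points of each other, and 24.8% of the 6015 deeply covered genes had a smaller spread. The mean was 60.4 ± 1.14% (SD, n = 6), and the polionotus copy was higher by 0.61 on the log2 scale (SE 0.03, edgeR adjusted p = 1.42e-05). A share this far from 50% or farther is not rare in these hybrids: 65.5% of the 11928 genes had a mean share as close to 50% as Bcl2l1 or closer.

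In the parental brains Bcl2l1 was not called between the species. It was at 26.2, 28.5 and 27.5 TPM in polionotus burrowing brains and 27.5, 29.7 and 27.1 TPM in polionotus control brains. In maniculatus it was at 27.5, 30.1 and 27.0 TPM in burrowing brains and 25.5, 26.5 and 26.8 TPM in control brains. The species overlapped over most of their range, with means of 27.8 ± 1.21 TPM in polionotus and 27.2 ± 1.54 TPM in maniculatus (SD, n = 6 each) and a log2 difference of 0.03 (SE 0.04, limma adjusted p = 0.604), whose sign turned under quantile normalization (−0.046) and median scaling (−0.038). The F1 allele ratio exceeded the parental difference by 0.58 on the log2 scale (SE 0.05, limma adjusted p = 4.38e-07), and by 0.53 to 0.65 under the 26 alternatives tried. In this comparison of ratios 41.8% of 9987 genes were called, 23.0% with the allele ratio the larger and 18.8% with it the smaller, and 1 of the 3 members, Bcl2l1, was called. Of those calls over all genes, 55.1% had the larger allele ratio, against 65.1% after quantile normalization of the parental values and 47.6% with both ratios centred at their medians.

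**Figure D4:**
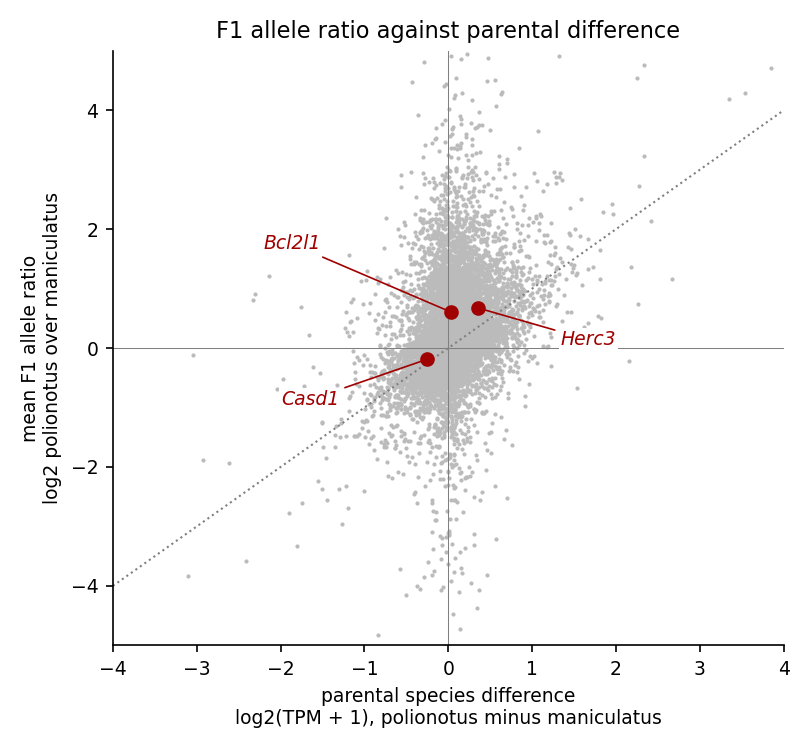
Mean log2 allele ratio in F1 brains (polionotus over maniculatus) against the parental difference in log2(TPM + 1), polionotus minus maniculatus, for 9956 genes (31 more lie outside the axes); the dotted line marks equal values. Casd1 lies near the line (−0.19 against −0.26), Bcl2l1 lies above it (0.61 against 0.03), and Herc3 (0.68 against 0.35) is a mean over animals on both sides of 0.

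The genes flanking Bcl2l1 had allele shares from near 5% to above 80%. Within 5 places, 5 genes had allele counts, and 2 of them lay past the bounds of 25% and 75%. Hm13, 5 places away, encodes signal peptide peptidase, which cuts leftover signal peptides within the membrane. In mouse, where the gene is called H13, it also hosts an imprinted retrogene and its full-length transcript comes mostly from the maternal copy. Its polionotus share was 7.17%, 5.42% and 5.35% in burrowing F1 brains 1, 2 and 3 and 4.82%, 5.49% and 5.56% in control F1 brains 1, 2 and 3. Nearly all Hm13 reads, on 1078 to 4949 per animal, thus came from the maniculatus copy in every hybrid.

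In the parental brains Hm13 differed the other way. It was at 54.9 to 59.1 TPM in polionotus (median 58.4) and at 42.4 to 47.8 TPM in maniculatus (median 44.3), ranges that did not overlap, and the log2 difference was 0.36 (SE 0.04, limma adjusted p = 3.44e-05). The copies in the hybrids differed by −4.07 on the log2 scale (SE 0.09, edgeR adjusted p = 4.03e-07), and the allele ratio minus the parental difference was −4.43 (SE 0.09, limma adjusted p = 1.98e-14). Total Hm13 in the hybrids was even, at 91.8 to 101 CPM of allele-assigned reads. Whether the maniculatus copy is favoured by its species or by the parent that transmitted it cannot be told apart. The sources used here do not name how reads were assigned to a copy. The part of that step in this and the other uneven shares was not tested.

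Mylk2, a myosin light chain kinase 4 places to the other side of Bcl2l1, leaned towards polionotus. Its share was 74.4%, 82.8% and 80.6% in burrowing F1 brains and 82.9%, 82.7% and 83.7% in control F1 brains, with a log2 ratio of 2.12 (SE 0.12, edgeR adjusted p = 2.53e-05). The parental difference in Mylk2 was 0.34 (SE 0.12, limma adjusted p = 0.0323). The other 3 of the 5 genes lay inside both bounds and are named after their values were seen: Id1 and Tpx2, between Hm13 and Mylk2, averaged 47.0% and 67.5%, and Foxs1, beyond Mylk2, averaged 39.0%, so adjacent genes did not share 1 direction.

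Around Bcl2l1 the hybrids again fell into sets, but not those seen at Herc3. These genes too were chosen after their values were seen. Tpx2, 1 place from Bcl2l1, had a polionotus share of 74.2% in burrowing 1, 73.4% in burrowing 3 and 77.1% in control 1, and of 59.7% in burrowing 2, 60.3% in control 2 and 60% in control 3. Ttll9, 7 places away, had 46.9%, 41.4% and 35.6% in burrowing 1, burrowing 3 and control 1, and 14.0%, 17.0% and 14.0% in burrowing 2, control 2 and control 3. Kif3b, a kinesin motor subunit 19 places away, had 52.4%, 51.7% and 53.3% in burrowing 1, burrowing 3 and control 1, and 43.4%, 44.4% and 42.4% in burrowing 2, control 2 and control 3. Bcl2l1 itself had 60.4%, 62.3% and 60.8% in burrowing 1, burrowing 3 and control 1, and 59.6%, 59.95% and 59.1% in burrowing 2, control 2 and control 3, a much smaller gap than in these neighbours. Each set holds animals of both trials and of both kinds of label code.

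Casd1 encodes the enzyme that adds O-acetyl groups to sialic acids, and in mouse it lies within an imprinted cluster. Its allele ratio in the hybrids lay close to the difference between the parents. The polionotus share was 46.7%, 46.9% and 46.8% in burrowing F1 brains 1, 2 and 3 and 47.1%, 45.7% and 46.9% in control F1 brains 1, 2 and 3, on 2483 to 11484 reads per animal. All 6 animals lay below 50%, with a mean of 46.7 ± 0.508% (SD, n = 6), and only 3.19% of the deeply covered genes had a smaller spread than its 1.41 percentage points. The polionotus copy was lower by a log2 ratio of −0.19 (SE 0.02, edgeR adjusted p = 0.000518).

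The parental brains differed in the same direction. Casd1 was at 27.2, 26.0 and 29.4 TPM in polionotus burrowing brains and at 28.8, 22.9 and 28.7 TPM in polionotus control brains. It was at 34.1, 31.1 and 33.6 TPM in maniculatus burrowing brains and at 32.8, 35.0 and 29.3 TPM in maniculatus control brains. The species overlapped by less than 1 TPM, between the highest polionotus and the lowest maniculatus library. Means were 27.2 ± 2.45 TPM in polionotus and 32.7 ± 2.10 TPM in maniculatus (SD, n = 6 each), and the log2 difference was −0.26 (SE 0.07, limma adjusted p = 0.00815), or −0.26 (limma adjusted p = 0.00149) without the 3 libraries apart on the second component. The F1 ratio minus the parental difference was 0.07 (SE 0.07, limma adjusted p = 0.478), a difference that was not called and that its error leaves uncertain by about as much as its size. As a share, the parental means give 45.4% polionotus, against 46.7% measured between the copies in the hybrids. No annotated gene within 5 places of Casd1 had allele counts; the mean shares of the 23 counted genes within 50 places ran from 17.2% (Col28a1, 36 places away on 210 reads per animal on average) to 60.4% (Gatad1, 27 places away), both named after their values were seen.

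Cobl encodes cordon-bleu, a protein that starts actin filaments and shapes dendrites in neurons, and it has parental values only. It was the least abundant of the 4 members. It was at 10.2, 11.3 and 11.5 TPM in polionotus burrowing brains and at 9.50, 11.2 and 11.8 TPM in polionotus control brains. In maniculatus it was at 9.36, 10.7 and 10.9 TPM in burrowing brains and at 8.27, 9.68 and 9.03 TPM in control brains. The species overlapped widely, with means of 10.9 ± 0.879 TPM in polionotus and 9.66 ± 1.02 TPM in maniculatus (SD, n = 6 each), and the log2 difference of 0.16 was not called (SE 0.07, limma adjusted p = 0.0581). It did pass the threshold when polionotus burrowing 1 (limma adjusted p = 0.0463), polionotus control 1 (limma adjusted p = 0.0186) or maniculatus control 2 (limma adjusted p = 0.0480) was left out, and it did not (limma adjusted p = 0.206) without the 3 libraries apart on the second component.

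**Figure D5:**
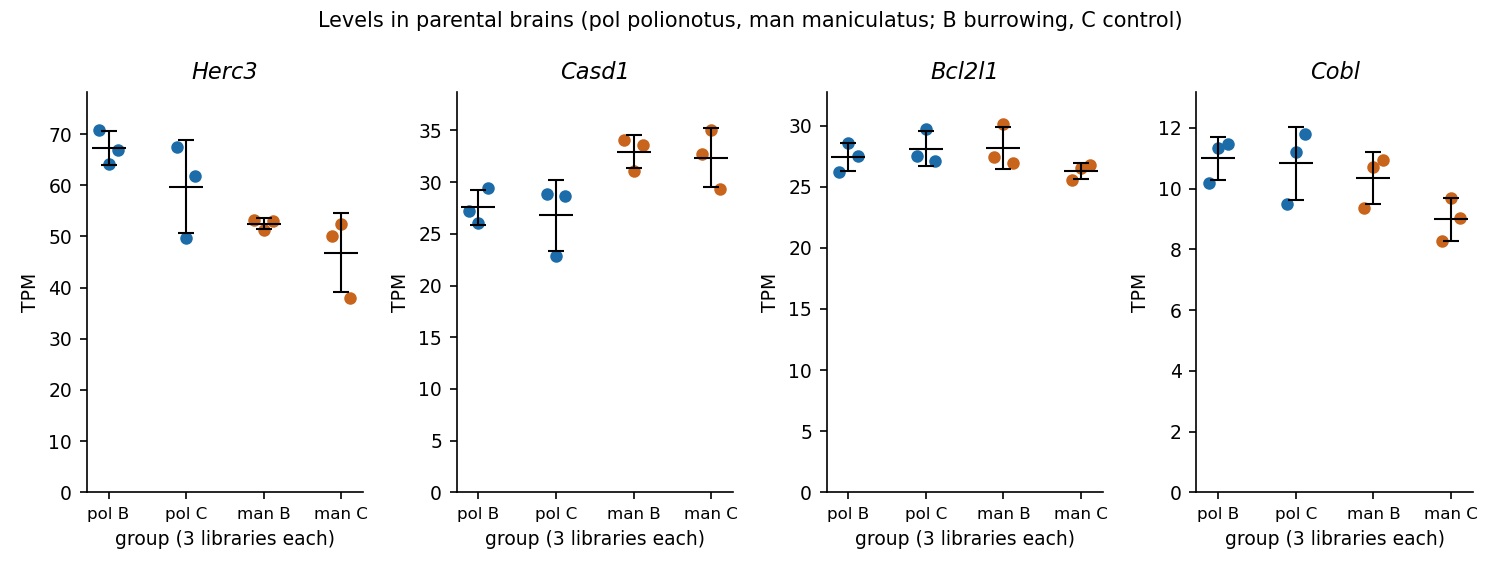
TPM of the 4 members in every parental library (points), with the group mean and SD (bars, n = 3); polionotus (blue) left of maniculatus (orange) and burrowing (B) left of control (C). Herc3 is higher and Casd1 lower in polionotus, while Bcl2l1 (27.8 TPM in polionotus, 27.2 TPM in maniculatus) and Cobl (10.9 TPM in polionotus, 9.66 TPM in maniculatus) were not called.

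By order of parental level, Herc3 came first in both species. In polionotus Bcl2l1 (27.8 TPM) and Casd1 (27.2 TPM) did not differ beyond their spread over libraries, while in maniculatus Casd1 (32.7 TPM) lay above Bcl2l1 (27.2 TPM) with overlapping library ranges. Cobl was the lowest in both. TPM are per length, so these levels can be set beside each other, but annotation and mapping can differ between genes and species.

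No member was called between the burrowing and the control trial, in either species or in the hybrids. In maniculatus, Herc3 averaged 52.5 ± 1.04 TPM after the burrowing and 46.8 ± 7.70 TPM after the control trial (SD, n = 3 each), a log2 difference of 0.17 (SE 0.13, limma adjusted p = 1). In polionotus it averaged 67.3 ± 3.37 TPM after the burrowing and 59.7 ± 9.08 TPM after the control trial (SD, n = 3 each), a log2 difference of 0.18 with a limma adjusted p of 0.998. Without maniculatus control 3 the first difference was 0.04, and without polionotus control 2 the second was 0.06. Summed hindbrain and spinal cord markers, 17 of 17 measured, were 52.9 to 62.9 TPM in polionotus burrowing and 9.97 to 42.9 TPM in polionotus control brains, ranges that did not overlap; their part in the polionotus trial differences was not tested. Cobl in maniculatus gave the largest of the 8 parental trial differences, 0.18 (SE 0.09, limma adjusted p = 1), with 10.3 ± 0.854 TPM after the burrowing and 8.99 ± 0.705 TPM after the control trial (SD, n = 3 each). The other 5 parental differences lay between −0.04 and 0.10. Over all 14366 genes limma called 0.00696% between the trials in maniculatus and 0% in polionotus, with 291 genes at an unadjusted p under 0.05 in maniculatus and 446 in polionotus.

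In the hybrids, counts summed over both copies also gave no call for a member. The log2 differences between burrowing and control were 0.06 for Herc3 (SE 0.16), 0.13 for Casd1 (SE 0.17) and 0.01 for Bcl2l1 (SE 0.11), with edgeR adjusted p values of 0.972, 0.965 and 0.993. Without burrowing 2 the values were −0.058 for Herc3, −0.022 for Casd1 and 0.10 for Bcl2l1, so the sign of the first pair turned, and none was called. Over all 11928 genes 0% were called, with 90 at an unadjusted p under 0.05 and between 0 and 2 called under the alternatives, DESeq2 among them. The allele shares of the members were not called between the trials either. The mean Herc3 share was 60.8 ± 13.6% in burrowing and 61.4 ± 14.1% in control hybrids (SD, n = 3 each). That of Bcl2l1 was 60.8 ± 1.40% in burrowing and 59.95 ± 0.891% in control hybrids, and that of Casd1 46.8 ± 0.0741% in burrowing and 46.5 ± 0.766% in control hybrids. The allele by trial term was −0.04 for Herc3 (SE 0.60), 0.05 for Bcl2l1 (SE 0.07) and 0.02 for Casd1 (SE 0.05), each with an edgeR adjusted p of 1, where 0.226% of all genes were called, 0.218% with the larger and 0.00838% with the smaller ratio after the burrowing trial. For Herc3 the error of this term is wide, since each trial holds 1 animal of the lower and 2 of the higher share.

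A second list held 40 further genes reported as imprinted in mouse, of which 7 had parental values and 6 allele counts. Their median share was 46.6%, and 2 of the 6 lay at or below 25%, where 2.03% of all genes did. Both belong to the imprinted domain around Trappc9 in mouse, in which brain transcripts come mostly from the maternal copy. Ago2, an RNA-induced silencing protein, had polionotus shares of 7.55% to 8.65% in burrowing F1 brains and 5.54% to 7.48% in control F1 brains. Trappc9, a vesicle-trafficking subunit, had 10.9% to 13.5% in burrowing F1 brains and 10.9% to 12.1% in control F1 brains. Chrac1, from the same mouse domain, was even at 45.2% to 50.5%. The copies of Ago2 differed by −3.68 (edgeR adjusted p = 1.35e-06) and those of Trappc9 by −2.89 (edgeR adjusted p = 4.03e-07) on the log2 scale.

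Their parental levels gave no such gap. Ago2 averaged 14.4 ± 1.10 TPM in polionotus and 12.8 ± 0.803 TPM in maniculatus, a log2 difference of 0.16 (limma adjusted p = 0.0324), opposite in sign to its allele ratio. Trappc9 averaged 16.1 ± 1.07 TPM in polionotus and 17.9 ± 0.366 TPM in maniculatus (SD, n = 6 each), a log2 difference of −0.15 (limma adjusted p = 0.0175). Chrac1 was higher in polionotus by 0.30 (limma adjusted p = 0.0246). In all, 2 of the 7 were higher and 1 lower in polionotus, where 32.6% of all genes were higher and 19.8% lower. Of the 6, 1 had a higher and 2 a lower polionotus copy, where 34.2% of all genes had a higher and 21.5% a lower one. The allele ratio exceeded the parental difference in 1 of 6 and fell below it in 3, where it did so in 23.0% and 18.8% of all genes. Without burrowing 2, 0 of the 6 had a higher and 3 a lower polionotus copy, and the ratio was above the parental difference in 1 and below it in 4.

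Of 36 genes that set or keep imprints, 22 were tested between the parental species and 20 had allele counts. In polionotus 8 of the 22 were higher and 2 lower, against 32.6% and 19.8% of all genes. The 3 with the smallest p were Tet2, which oxidises methylcytosine, Atrx, a chromatin remodeller, and Kdm1b, a histone H3K4 demethylase needed for maternal imprints in mouse oocytes. Tet2 averaged 17.1 ± 1.37 TPM in polionotus and 7.99 ± 1.72 TPM in maniculatus (SD, n = 6 each), a log2 difference of 1.03 (limma adjusted p = 9.70e-06). The differences of Atrx and Kdm1b were 0.35 (limma adjusted p = 3.92e-05) and 0.36 (limma adjusted p = 0.000229). The copies of Tet2 lay closer together than its parental levels: its polionotus share was 51.3% to 55.7%, and its allele ratio lay below the parental difference by a log2 value of −0.83 (limma adjusted p = 2.14e-05).

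In the hybrids 10 of these 20 genes had a higher and 2 a lower polionotus copy, against 34.2% and 21.5% of all genes, and 9 and 2 did without burrowing 2. A pair of them had a mean share of at least 75%, where 5.83% of all genes did. Cbx5, which encodes heterochromatin protein 1 alpha, had 85.2% to 87.5% polionotus in all 6 animals. Ehmt2, the histone methyltransferase G9a, averaged 79.4% but had 53.0% in burrowing 2, against 83.6% to 86.6% in the other 5. Of the 17 regulators with both kinds of value, 4 had an allele ratio above and 6 one below the parental difference, against 23.0% and 18.8% of all genes; without burrowing 2 these were 4 and 4. The trial comparisons and the allele by trial term called 0 of the regulators and 0 of the further imprinted genes.

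The parental libraries carried the markers of brain. Summed neuron markers, 12 of 12 measured, reached 4439 to 5136 TPM in polionotus and 4316 to 4763 TPM in maniculatus, and summed oligodendrocyte markers, 8 of 8, 2513 to 2859 TPM in polionotus and 2556 to 3419 TPM in maniculatus. Summed astrocyte markers, 8 of 8, were 4142 to 4808 TPM in polionotus and 4718 to 5298 TPM in maniculatus, and choroid plexus and ependymal markers, 13 of 14, were 1401 to 2160 TPM in polionotus and 1223 to 1556 TPM in maniculatus, with Kcnj13 at 0 in some libraries. Hindbrain and spinal cord markers ran from 9.97 to 62.9 TPM in polionotus and from 40.1 to 60.6 TPM in maniculatus, with Hoxa5, Hoxb8, Hoxc5 and Hoxc6 at 0 in some libraries. Summed hypothalamic markers, 18 of 18, were 329 to 402 TPM in polionotus (median 384) and 359 to 545 TPM in maniculatus (median 455), with Hmx2 at 0 in some libraries. Meningeal and fibroblast markers, 11 of 12, were 106 to 129 TPM in polionotus and 116 to 161 TPM in maniculatus. Microglia and endothelial markers, 9 of 12, were 356 to 415 TPM in polionotus and 286 to 396 TPM in maniculatus. Pituitary markers, 7 of 10, summed to 5.01 to 8.69 TPM in polionotus and 8.43 to 13.9 TPM in maniculatus, and among them Fshb, Pitx1 and Pou1f1 were at 0 in some libraries. The part of these differences in the species differences of Herc3 and Casd1 was not tested.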

How the data were processed

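The authors deposited TPM per gene (transcript levels scaled by length and library) for the 12 parental brains and, for the 6 F1 brains, read counts per gene assigned to the polionotus or the maniculatus allele. STAR 2.4.2a was used, per the submitters' processing notes; the sources used here name no genome build, method of allele assignment, counting setting or parental read depth. The smallest count in the deposited allele table is 2, so genes with fewer reads on a copy are not among its 11928 rows. A TPM row that names no gene, with 0.789% to 2.48% of the total, and a few names turned into dates (27 and 19 in the TPM and count tables) stayed out of the named results.

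Parental values were tested as log2(TPM + 1) with limma 3.58.1 (R 4.3.3) over the 14366 genes that averaged 1 TPM or more. Allele counts and counts summed over copies were tested with edgeR 4.0.16 (quasi-likelihood; DESeq2 1.42.0 as an alternative), both columns of an animal sharing 1 library size. The F1 log2 allele ratio (pseudocount 0.5) was set against the parental difference in 1 limma fit over 9987 genes. P-values are two-sided and Benjamini-Hochberg adjusted over all genes tested, with a threshold of 0.05; all fits were tested on simulated data. Shares have Wilson 95% intervals.

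Samples were grouped by their titles. The labels do not say whether libraries of a group come from separate litters, so p-values measure the spread between these samples. Libraries of a group shared at most 0.964% identical values above 0. The members, the lists and the tests were chosen with earlier results of these data known. Named genes follow a rule: every member found; other listed genes and counted neighbours within 5 places by a mean share of at least 75% or at most 25%; and the 3 listed genes of smallest species p in each list. The rule was applied to the lists of imprinted genes and imprint regulators, and marker lists are given as sums; 1 neighbour of Herc3 is not reported here. Genes outside the rule are named as chosen after their values were seen.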

Additional observations from a re-analysis of the deposited data

Results flagged for a closer look

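In the maniculatus libraries, the lowest Herc3 value, 38.04 TPM in control 3, stood apart from the other 5, which lay between 50.1 and 53.2 TPM; its gap to the nearest of them was 0.795 of the whole range, above Dixon's critical value for 6 samples. This library also stood apart on the second principal component. Among the F1 animals, the lowest Casd1 polionotus share, 45.7% in control 2, was set off from the other 5 (46.7% to 47.1%) by 0.766 of the range, although its Wilson interval of 43.7% to 47.6% spans all of them. Chance flags about 1 in 20 groups tested in this way.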

How the results depend on the processing

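The species calls of Herc3 (log2 0.28 to 0.41) and Casd1 (−0.33 to −0.21), the allele calls of Bcl2l1 (0.43 to 0.63) and Casd1 (−0.37 to −0.18) and the Bcl2l1 excess over the parental difference (0.53 to 0.65) kept direction and call under all alternatives tried. The members called numbered 2 or 3 of 4 between species and 2 or 3 of 3 between copies. In the comparison of ratios, 1 member was called, and 2 when only number-coded or only F1-coded animals entered; these alternatives, and the one without the 3 libraries apart on the second component, were chosen after seeing the data. With the F1-coded animals alone, Herc3 turned to −0.29 between copies and to −0.64 against the parental difference, and with the number-coded animals alone these were 1.16 and 0.81. The allele by trial term called between 10 and 73 genes over its alternatives (27 as reported), and the maniculatus trial between 0 and 6, the polionotus trial between 0 and 3; 0 members were called in any of them. A library size per allele column together with TMM scaling moved the median log2 allele ratio over all genes to −0.07, against 0.11, and left 39.8% of the calls with the polionotus copy higher, against 61.3%. The cause of these shifts was not tested.

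Values near 0 changed sign, none of them called. Bcl2l1 between species was −0.046 after quantile normalization and −0.038 after median scaling. The Casd1 trial difference in maniculatus was −0.0044 and −0.0047 under these, and −0.040 without the 3 libraries apart; in polionotus those libraries' removal gave −0.11 for Casd1 and 0.0016 for Bcl2l1. Leaving out 1 library at a time, the trial difference ran from −0.040 to 0.083 for Casd1 in maniculatus, and in polionotus from −0.060 to 0.082 for Cobl, from −0.060 to 0.10 for Casd1 and from −0.063 to 0.0039 for Bcl2l1. In the F1 it ran from −0.058 to 0.19 for Herc3, from −0.022 to 0.24 for Casd1 and from −0.057 to 0.10 for Bcl2l1, and the allele by trial term from −0.52 to 0.42 for Herc3 and from −0.0098 to 0.031 for Casd1.

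Whether the shared replicate numbers pair the samples is not stated in the labels, and the correlations of deviations of same-numbered libraries cannot settle it. These were 0.10 to 0.25 between maniculatus trials and −0.23 to 0.05 between polionotus trials. Between species they were −0.01 to 0.10 and −0.12 to −0.09, and between F1 trials −0.57 to 0.19. With the replicate block, Cobl passed between the species (log2 0.16, limma adjusted p = 0.00667), which made 3 members called, with 7764 genes in all; the block changed no other call of a member. The precision of the shares is limited by 2483 to 24995 reads per member and animal, and that of parental TPM is unknown, since their depth is.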

Other observations

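Other imprint-related genes, chosen after their values were seen, differed in how far their allele shares varied between hybrids. Tle6, a maternal-effect gene needed by early mouse embryos, had polionotus shares of 69.4%, 51.9% and 67.8% in burrowing F1 brains and of 7.48%, 11.98% and 20.5% in control F1 brains, on 54 to 1408 reads per animal. Its summed level was 1.86 to 6.09 CPM in burrowing F1 brains and 18.7 to 26.5 CPM in control F1 brains (log2 −2.45, SE 0.41, edgeR adjusted p = 0.965). The trials overlapped in neither measure, and how many of all genes separate the trials likewise was not counted. In the parental brains the Tle6 trial difference had the opposite sign, 0.51 in maniculatus (SE 0.33) and 0.15 in polionotus (SE 0.33), and limma called neither. The highest maniculatus burrowing library had 23.0 TPM, against a median of 8.45 TPM in that group. The allele by trial term of 3.57 on the log2 scale (SE 0.53) was not called after adjustment over all genes (edgeR adjusted p = 0.217), where 0.226% of genes were. Trim28, the corepressor that keeps imprints together with Zfp57, had 36.6% in burrowing 2 and 21.6% to 27.6% in the other 5 animals. Adam23, reported as imprinted in mouse brain, had 59.5% in burrowing 2 and 40.6% to 44.7% in the other 5. Tbc1d12, from the list of further imprinted genes, ran from 33.3% to 80% on 105 to 813 reads per animal. Uhrf1, from the list of regulators, ran from 36.4% to 82.4% on only 18 to 74 reads per animal. Arid4b, a chromatin protein that takes part in imprint control in mouse, varied little and stayed within 49.4% to 50.6%.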
